A study of Mus musculus with 3 samples.

Results

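Gapdh, Ppia and Hsp90ab1 are 3 abundantly transcribed genes that are often used as references in expression studies, and they are followed here as candidate reference genes over a vehicle array, a melatonin array and an 8-M-PDOT array. They were chosen because earlier results of these arrays had shown small differences for them, so their ratios and ranges below are a description and no test is attached to them. They are 3 of the 15 genes that the files pair with a study probe through a RefSeq accession, among 60846 study probes kept. Each gene has 1 probe printed as 20 spots on each array, and 59 of the 60 spot positions carried no outlier flag on any array. Gapdh (probe CUST_14_PI419532418, chromosome 6) and Hsp90ab1 (CUST_6_PI419532418, chromosome 17) kept 20 positions, and Ppia (CUST_10_PI419532418, chromosome 11) kept 19.

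The RNA came from primary dorsal root ganglion neurons, sensory nerve cells that relay touch and pain, taken from C57BL/6 mice 5 to 9 days old. The cells were grown for 5 days and then incubated for 24 h with 1 mM melatonin, with 100 µM 8-M-PDOT, which the labels call an agonist of melatonin receptor 1B, or with the vehicle, 1% ethanol in normal saline. All 3 groups were otherwise untreated C57BL/6 cultures with no allele named, and the labels give no solvent for the treated cultures and no number of animals or cultures behind a sample. Each condition had 1 array, so there was no replicate check, no p-value was computed, and having so few arrays bounds the precision of every value. None of the 19 cell type marker genes listed for neurons, glia, fibroblasts, macrophages and endothelium was named by accession, so the labelled cell type was not checked here. In bulk RNA such as this, fewer cells of a type and less RNA per cell cannot be told apart.

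The 3 genes belong to separate housekeeping systems. Gapdh encodes glyceraldehyde-3-phosphate dehydrogenase, the glycolytic enzyme that oxidises glyceraldehyde-3-phosphate and makes NADH. Ppia encodes cyclophilin A, a cytosolic peptidyl-prolyl isomerase that helps proteins fold and is the target of cyclosporin A. Hsp90ab1 encodes the constitutively made cytosolic form of the chaperone HSP90, which matures kinases and steroid receptors. Neurons use all 3 systems throughout, which is one reason why such genes serve as references. Of the lists set up around them, glycolysis had 1 of 11 genes named by accession (Gapdh), the cyclophilin family 1 of 8 (Ppia) and the HSP90 chaperone system 1 of 10 (Hsp90ab1), so no other pathway member has a study probe named by accession.

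The promoters of Gapdh and Ppia are shown because they differ in their core elements while both genes served as candidate references. They are the 250 bases before the annotated start in RefSeq (build GRCm38.p6), where 2 of the 3 genes matched an entry. The array grid names the mm9 build, and no array probe was placed on these coordinates. Capitals mark every match, on either strand, to TATAAA (the TATA box), CCAAT (the CCAAT box) or GGGCGG (the GC box). No matches overlapped.
Gapdh, chr6:125165774-125166023, minus strand: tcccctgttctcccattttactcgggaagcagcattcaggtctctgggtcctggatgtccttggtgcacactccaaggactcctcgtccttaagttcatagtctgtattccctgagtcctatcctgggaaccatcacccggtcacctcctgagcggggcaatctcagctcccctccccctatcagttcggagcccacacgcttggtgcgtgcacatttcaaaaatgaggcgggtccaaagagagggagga
Ppia, chr11:6415617-6415866, plus strand: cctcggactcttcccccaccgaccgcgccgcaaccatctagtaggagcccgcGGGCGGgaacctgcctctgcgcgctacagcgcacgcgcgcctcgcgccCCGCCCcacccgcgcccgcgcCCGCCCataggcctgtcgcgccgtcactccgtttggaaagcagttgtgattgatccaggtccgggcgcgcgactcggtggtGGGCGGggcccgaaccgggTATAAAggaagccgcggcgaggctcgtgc

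The Ppia window held 1 TATAAA, which began at position -29 from the start, and 4 GGGCGG matches, which began at -198, -150, -129 and -48. The Gapdh window held 0 matches to any of these 3 motifs. Of 32851 promoter windows of the same length, 12.4% held TATAAA, 33.8% CCAAT and 32.7% GGGCGG. The GC content was 72.4% for Ppia and 55.6% for Gapdh, against a median of 52.4% over all windows. These matches describe letters and not bound factors. RefSeq lists 60 pseudogenes under a Ppia name and 3 under a Gapdh name, and 0 under an Hsp90ab1 name. Only names made of the gene symbol and -ps were counted, so pseudogenes filed under other names are missing for each gene. Transcripts of near-copies could add to the signals of any of the 3 genes. Their part was not tested.

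The 3 arrays lay on 1 slide read in 1 scan, per the file headers, and position on the slide goes with the condition. Of the 60846 probes, 44580 to 45094 were well above background on an array. The whole arrays differed in brightness, with a 75th percentile signal of 477 intensity units for vehicle, 454 for melatonin and 328 for 8-M-PDOT. On the log2 scale this percentile lay at -0.07 for melatonin and at -0.54 for 8-M-PDOT relative to vehicle. No spot was saturated, and the brightest spot of the 3 genes, a Ppia spot on the vehicle array, reached 30.4% of the saturation value.

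Gapdh was brightest on the vehicle array and dimmest on the 8-M-PDOT array before any scaling. Its 20 spots ran from 126283 over a median of 134456 to 139734 intensity units on the vehicle array. On the melatonin array they ran from 106079 over 108903 to 118189 units, and on the 8-M-PDOT array from 83710 over 87611 to 97634 units. The spot values of the 3 arrays did not overlap, and at every one of the 20 positions both treated arrays were below vehicle. The mean signal was 81.8% of vehicle with melatonin and 66.3% with 8-M-PDOT. Most probes were lower before scaling as well. Of all measured probes, 61.9% were below vehicle with melatonin and 71.8% with 8-M-PDOT. Of the 1268 probes at least as bright as that of Hsp90ab1, 82.6% and 63% were. The same shares stand beside the unscaled values of Ppia and Hsp90ab1 below.

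Scaling each array to its 75th percentile removed most of the 8-M-PDOT difference in Gapdh and little of the melatonin difference. The scaled log2 ratio to vehicle was -0.22 ± 0.05 (SD over 20 spots) for melatonin and -0.05 ± 0.05 for 8-M-PDOT. All 20 positions stayed below vehicle with melatonin, and 16 of 20 did with 8-M-PDOT. In the scaled values, 55.6% of all measured probes were below vehicle with melatonin and 52% with 8-M-PDOT. Of the 1268 probes at least as bright as that of Hsp90ab1, 73% and 31.2% were. These shares also stand beside the scaled values of Ppia and Hsp90ab1 below. After scaling, the spot values of the 8-M-PDOT array overlapped those of both other arrays, while melatonin and vehicle still did not overlap. The spots share 1 RNA sample and 1 array, so this spread is technical and says nothing of the spread between cultures. Spots all on 1 side are not particular to the 3 genes. With melatonin, in the same scaling, all spots were below vehicle for Tuba1b (19 of 19), Tfrc (19 of 19) and Hprt (20 of 20). For Actb, B2m and Gusb 0 spots were, and for Nono 13 of 20. The share of all probes whose spots do not overlap is not given here, so nothing is read from the missing overlaps.

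Ppia gave the same order of arrays before scaling. Its 19 spots ran from 208871 over a median of 226441 to 236809 units on the vehicle array, from 168217 over 181410 to 192108 on the melatonin array, and from 149589 over 162572 to 181473 on the 8-M-PDOT array. The vehicle spots lay above all spots of the treated arrays, and the treated arrays overlapped each other. The mean signal was 80.3% of vehicle with melatonin and 72.3% with 8-M-PDOT.

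After scaling, the Ppia log2 ratio was -0.25 ± 0.04 (SD over 19 spots) for melatonin and 0.07 ± 0.06 for 8-M-PDOT. With melatonin, 19 of 19 positions were below vehicle and the spot values did not overlap. With 8-M-PDOT, 2 of 19 positions were below vehicle and the spot values overlapped. In this scaling the Ppia signal was therefore lowest on the melatonin array and highest on the 8-M-PDOT array. Under quantile normalization and in the deposited table the 8-M-PDOT array was the lowest instead, at -0.33 and -0.31 relative to vehicle.

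Hsp90ab1 differed least of the 3 genes in the scaled values. Its 20 spots ran from 34545 over a median of 36477 to 38592 units on the vehicle array, from 30046 over 31789 to 35362 on the melatonin array, and from 23311 over 25297 to 28569 on the 8-M-PDOT array. Vehicle and melatonin spots overlapped even before scaling, and the 8-M-PDOT spots lay below both. The mean signal was 87.9% of vehicle with melatonin and 69.5% with 8-M-PDOT. After scaling, the log2 ratio was -0.11 ± 0.04 (SD over 20 spots) for melatonin and 0.02 ± 0.07 for 8-M-PDOT, and the spots of all arrays overlapped. At 20 of 20 positions melatonin stayed below vehicle, and at 8 of 20 8-M-PDOT did.

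**Figure D1:**
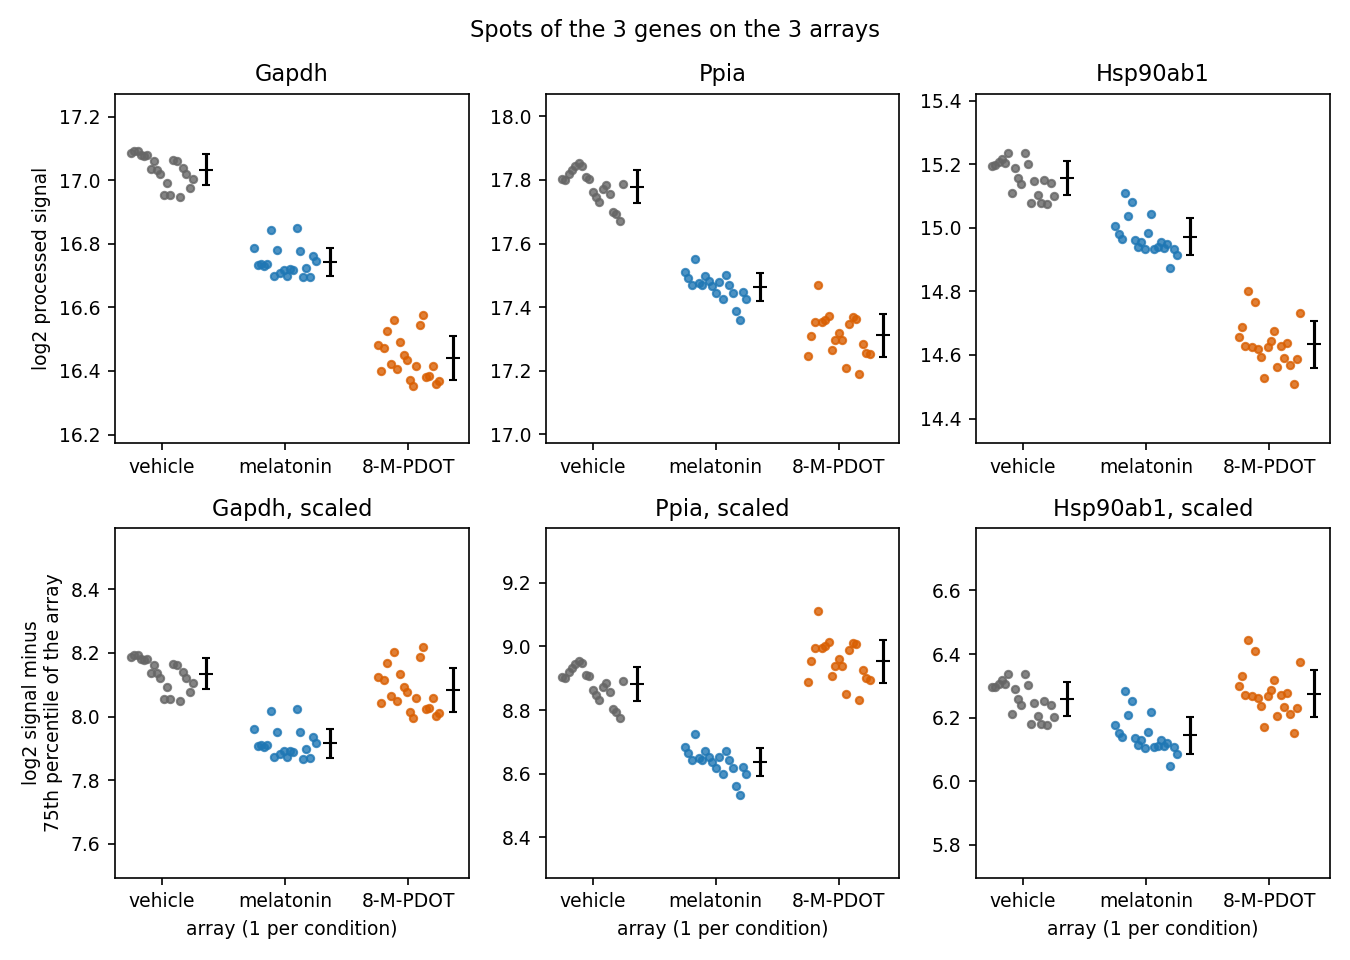
Each point is 1 spot of Gapdh, Ppia or Hsp90ab1, in order of array row, on the vehicle, melatonin and 8-M-PDOT arrays, with the mean and the SD over spots beside it. The upper row shows log2 processed signals, where vehicle lies highest for each gene, and the lower row shows them minus the 75th percentile of the array, where the melatonin array lies lowest. Each panel spans the same number of log2 units.

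The error that the scanner software assigned to a spot was 10% of its signal for each gene and array, which gives 0.20 on the log2 scale for a ratio of 2 spots. The melatonin ratios of Gapdh and Ppia were just past that size, and the other 4 ratios were inside it. That size holds for single spots, while these ratios are means over 19 or 20 positions with a spot SD of 0.04 to 0.07. It is thus no measure of the error of the means, and nothing is read from it. Of the 3 genes, 0 were 2-fold from vehicle with melatonin, where 11.2% of 46504 measured probes were (6.09% higher and 5.14% lower). With 8-M-PDOT 0 of the 3 genes were, beside 32.9% of 47822 probes (17.1% higher and 15.8% lower). Without scaling the count of the 3 genes was again 0, beside 11.4% of probes with melatonin (5.4% higher, 6.01% lower) and 42.5% with 8-M-PDOT (10.2% higher, 32.2% lower). The genes were chosen on these contrasts, so nothing is read from that difference. The median log2 ratio of the 3 genes was -0.22 with melatonin, beside -0.06 over all measured probes, and 0.02 with 8-M-PDOT, beside -0.04. Both comparisons use the same vehicle array. The compounds were given at 1 mM and 100 µM, so their values stand side by side and are not compared.

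Probes at least as bright as the dimmest of these genes gave another reference. Gapdh and Ppia are brighter than Hsp90ab1, so this set is not matched to their level. On 1268 probes at least as bright as that of Hsp90ab1, the median log2 ratio was -0.14 with melatonin and 0.39 with 8-M-PDOT. With melatonin, Gapdh and Ppia lay below that median and Hsp90ab1 above it. With 8-M-PDOT, all 3 genes lay below it, although they were close to 0 on the scale of the 75th percentile.

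The direction of the small differences depended on the processing. Over 12 settings, the melatonin ratio of Gapdh ran from -0.29 to -0.03 and that of Ppia from -0.32 to -0.05, and both were below 0 in 12 of 12. The melatonin ratio of Hsp90ab1 ran from -0.19 to 0.13 and was below 0 in 8 of 12. With 8-M-PDOT the sign of each gene depended on the setting. Several settings shift all genes of an array by 1 constant, and scaling to the mean of the 3 genes forces their ratios to sum to 0, so these counts describe the offset between arrays as well as the genes. Gapdh ran from -0.59 to 0.09 (below 0 in 10 of 12), Ppia from -0.47 to 0.21 (5 of 12) and Hsp90ab1 from -0.52 to 0.15 (6 of 12). In 0 of the 12 settings was a ratio of any of the 3 genes 2-fold from vehicle.

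Under quantile normalization Hsp90ab1 parted from Gapdh and Ppia, which kept their distance from each other with 8-M-PDOT, and the authors' deposited table showed the like. In the deposited table, Gapdh stood at 16.91 log2 units on the vehicle array, 16.85 on the melatonin array and 16.46 on the 8-M-PDOT array. Ppia stood at 17.68, 17.53 and 17.37, and Hsp90ab1 at 14.90, 15.01 and 14.86. On that scale Gapdh and Ppia were at -0.45 and -0.31 relative to vehicle with 8-M-PDOT, and Hsp90ab1 at -0.03. The spot SD of the deposited values is not given in the table, and each gene has 1 value per array.

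**Figure D2:**
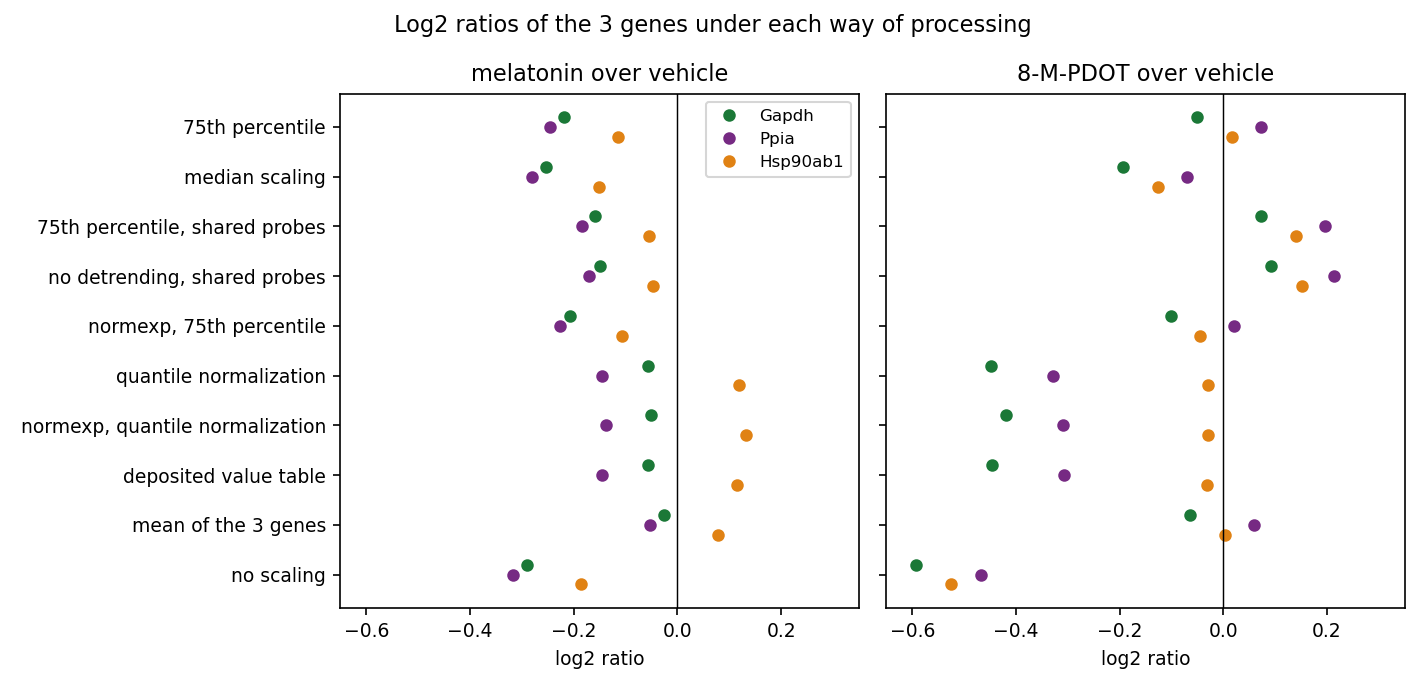
Log2 ratios to vehicle (horizontal axis) of Gapdh, Ppia and Hsp90ab1 under 10 ways of processing the arrays (vertical axis), for melatonin on the left and 8-M-PDOT on the right. Gapdh and Ppia stay below 0 with melatonin, the sign of Hsp90ab1 depends on the setting, and with 8-M-PDOT the sign of each gene depends on it.

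The genes were also compared with each other, because a constant scaling of an array cancels in the difference between 2 genes. With melatonin, the log2 ratio of Gapdh was within 0.03 of that of Ppia and -0.10 from that of Hsp90ab1, and Ppia was -0.13 from Hsp90ab1. With 8-M-PDOT, Gapdh was -0.12 from Ppia and -0.07 from Hsp90ab1, and Ppia was 0.06 from Hsp90ab1. Over the 3 arrays, the difference between 2 of the genes moved by 0.103 (Gapdh and Hsp90ab1), 0.15 (Gapdh and Ppia) and 0.19 (Hsp90ab1 and Ppia). The 66 pairs made of the other 12 named genes moved by 0.42 to 5.07, with a median of 2.05. The 36 pairs of 1 of the 3 genes with 1 of the other 12 moved by 0.05 to 2.92, with a median of 1.25. Among these, Gapdh with Tuba1b (0.05) and Ppia with Tuba1b (0.099) moved less than any pair within the 3 genes. The 3 genes were chosen for steadiness, so this gap is a description. Quantile normalization is no constant scaling and moved Gapdh from -0.07 to -0.42 relative to Hsp90ab1 with 8-M-PDOT.

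The profile over the 3 arrays most like each of the 3 genes, among the other 12 named genes, was that of Tuba1b, an alpha-tubulin gene of the microtubules. Its distance, as the Euclidean distance of scaled log2 profiles centred on their means over 3 arrays, was 0.04 from Gapdh, 0.08 from Ppia and 0.09 from Hsp90ab1. That is closer to Gapdh than Hsp90ab1 (0.07) and Ppia (0.11) were. Gk, glycerol kinase, followed at 0.36, 0.24 and 0.36, and Ldhal6b, a lactate dehydrogenase-like gene, at 0.60, 0.70 and 0.65. B2m, the light chain of MHC class I, was the farthest from each of the 3 genes, at 2.26 to 2.33.

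Ordered by the range over the 3 arrays in scaled log2 units, Hsp90ab1 came first of the 15 named genes at 0.13, Gapdh next at 0.22, then Tuba1b at 0.24 and Ppia at 0.32. The steps between neighbours up to Ppia are small, and that between Gapdh and Tuba1b is the smallest. The spot SD is no measure of the error of these means, and with 1 array per condition the spread between cultures is unknown. The order from Hsp90ab1 to Ppia thus describes these arrays and is not established. The next gene was Gk at 0.64, and the widest was B2m at 2.86. As folds between the highest and the lowest array, the ranges were 1.095 for Hsp90ab1, 1.16 for Gapdh and 1.25 for Ppia. For each of the 3 genes the melatonin array was the lowest in this scaling, as it was for Tuba1b, Gk and Tfrc. As those other genes show, this was not particular to the 3 genes. Of the 1268 probes at least as bright as that of Hsp90ab1, 73% were below vehicle with melatonin and 31.2% with 8-M-PDOT. The share of probes with melatonin as the lowest of the 3 arrays is not given here.

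**Figure D3:**
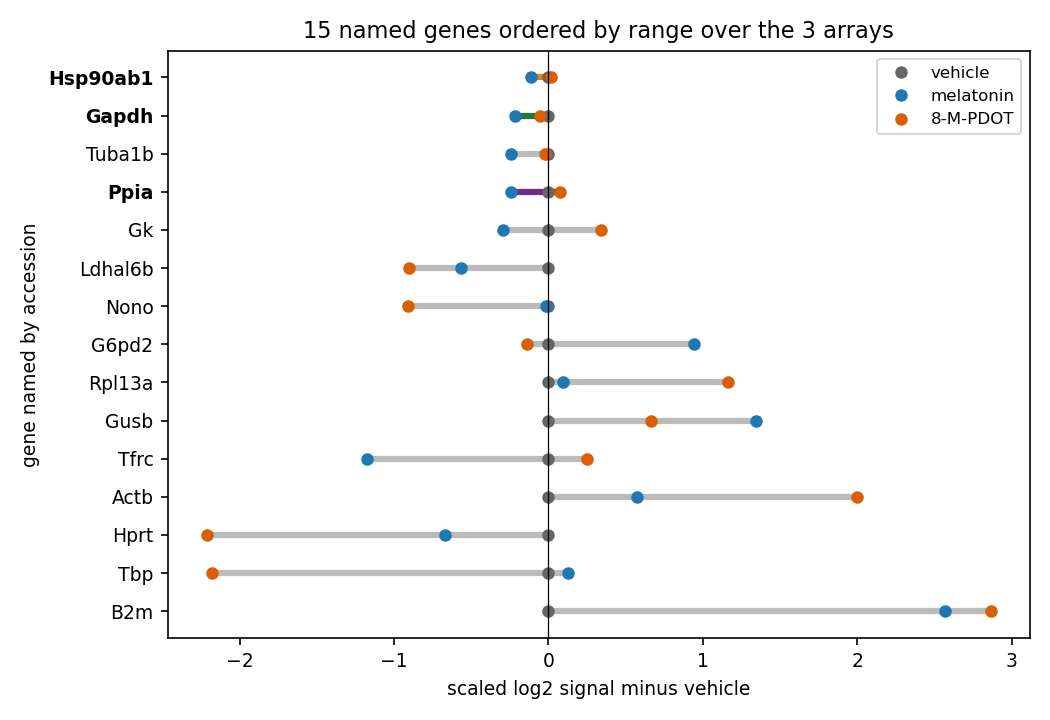
Scaled log2 signal of the 15 genes named by accession relative to vehicle (horizontal axis), with a point per array and a bar from the lowest to the highest array, ordered by the length of the bar. Hsp90ab1, Gapdh and Ppia (bold) and Tuba1b have the shortest bars, of 0.13 to 0.32, and B2m has the longest, of 2.86.

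In the scaling to the 75th percentile, the 3 genes were near the steady end of all probes without standing alone there. They were chosen for small differences on these arrays, so the shares below are a description, and they are given for this scaling alone. Of 41238 probes well above background on all arrays, 39.8% had a range of at least 2-fold, and the median range was 0.81 log2 units. The share of these probes with a range no larger than that of the gene was 2.65% for Hsp90ab1, 7.02% for Gapdh and 13.8% for Ppia. Among the 1268 probes at least as bright as Hsp90ab1, 20.7% had a range of at least 2-fold, the median range was 0.67, and the shares were 1.1%, 3.79% and 9.07%. These shares are not like for like. The 3 genes are means over 19 or 20 spots, while most of the 60846 probes on the grid of 384 rows and 164 columns have far fewer. A range from fewer spots carries more spot noise. Most of these probes are not paired with a gene, so steadier transcripts could not be named. Under other settings the range ran from 0.08 to 0.52 for Hsp90ab1, from 0.06 to 0.59 for Gapdh and from 0.11 to 0.47 for Ppia. Each lower end comes from scaling to the mean of the 3 genes, which makes their ranges small by construction. Leaving that setting out, the lowest ranges were 0.11, 0.21 and 0.25 in the same order, under normexp with the 75th percentile.

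**Figure D4:**
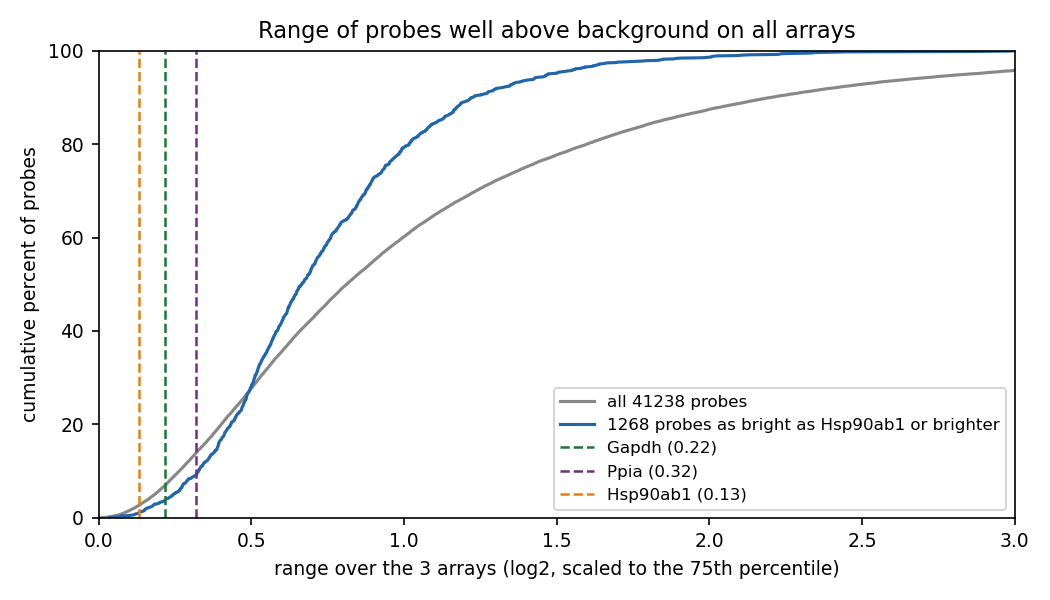
Cumulative percent of probes (vertical axis) by their range over the 3 arrays in scaled log2 units (horizontal axis, shown up to 3), for all 41238 probes well above background on every array and for the 1268 as bright as Hsp90ab1 or brighter. Dashed lines mark Hsp90ab1 at 0.13, Gapdh at 0.22 and Ppia at 0.32, which are means over more spots than most probes have.

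Gapdh could also be read from 6 control probes on the same arrays, named for mouse, rat and human GAPDH with a 3 or a 5 at the end of the name. The RNA was from mouse, and how well the rat and human probes read mouse Gapdh was not tested. Their median signals on the vehicle array ran from 1535 (Human-GAPDH_5) to 31172 units (Human-GAPDH_3). The probe Mouse-GAPDH_3 had median signals of 73911 units on the vehicle array, 58284 on the melatonin array and 45341 on the 8-M-PDOT array. Mouse-GAPDH_5 had 19531, 16028 and 10921 units. Both fell in the same order of arrays as the study probe of Gapdh, and their spots did not overlap between arrays. Before scaling, all 6 control probes were below vehicle on both treated arrays, from -0.36 to -0.06 with melatonin and from -0.83 to -0.59 with 8-M-PDOT.

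The mouse control probes lay below the study probe with 8-M-PDOT in the scaling to the 75th percentile. Mouse-GAPDH_3 had a log2 ratio of -0.20 ± 0.06 (SD over 9 spots) and Mouse-GAPDH_5 of -0.29 ± 0.08 (10 spots), where the study probe had -0.05 ± 0.05. With melatonin they had -0.29 ± 0.05 and -0.21 ± 0.07, beside -0.22 ± 0.05 for the study probe. Under quantile normalization the order changed, with the study probe at -0.45 with 8-M-PDOT, Mouse-GAPDH_3 at -0.49 and Mouse-GAPDH_5 at -0.14. In the scaling to the 75th percentile, the rat and human probes ran from -0.16 to 0.01 with melatonin and from -0.29 to -0.05 with 8-M-PDOT, where Human-GAPDH_3 had the same -0.05 as the study probe. With 8-M-PDOT, 5 or 6 of the 6 control probes were below vehicle in each of 7 settings, and with melatonin the number ran from 2 to 6.

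The ends of the transcript were read from the same control probes, with the limit given above for the rat and human probes. The ratio of Mouse-GAPDH_3 minus that of Mouse-GAPDH_5 was -0.08 ± 0.08 (combined spot SD) with melatonin and 0.09 ± 0.10 with 8-M-PDOT. For the rat probes the differences were 0.13 ± 0.09 and -0.09 ± 0.10, and for the human probes -0.14 ± 0.11 and 0.11 ± 0.08. In this scaling the signs differed between species within a comparison, and no difference exceeded 0.14. Under quantile normalization Mouse-GAPDH_3 lay below Mouse-GAPDH_5 with 8-M-PDOT, at the -0.49 and -0.14 given above, so the sign turned and the difference was larger. The part of RNA integrity in the Gapdh values was not tested.

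A second glycolytic gene, PGK1, had control probes as well. It encodes phosphoglycerate kinase, which acts on the product of the GAPDH reaction. The spots of Mouse-PGK1_3 had median signals of 50892, 35149 and 26248 units on the vehicle, melatonin and 8-M-PDOT arrays, without overlap between arrays. Its scaled log2 ratio was -0.45 ± 0.10 (SD over 10 spots) with melatonin and -0.42 ± 0.05 with 8-M-PDOT, and the dimmer Mouse-PGK1_5 had -0.66 ± 0.13 and -0.38 ± 0.07. Before scaling, Mouse-PGK1_3 stood at -0.53 and -0.96 and Mouse-PGK1_5 at -0.74 and -0.92. Each of these ratios was farther below 0 than that of either mouse GAPDH control probe and of the Gapdh study probe in the same comparison and scaling. The scaled and unscaled ratios differ by 1 constant per array, so the order of the probes is the same in both by construction. Quantile normalization can change that order and put Mouse-GAPDH_3 at -0.49 with 8-M-PDOT. Values of the PGK1 probes under it are not given here.

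**Figure D5:**
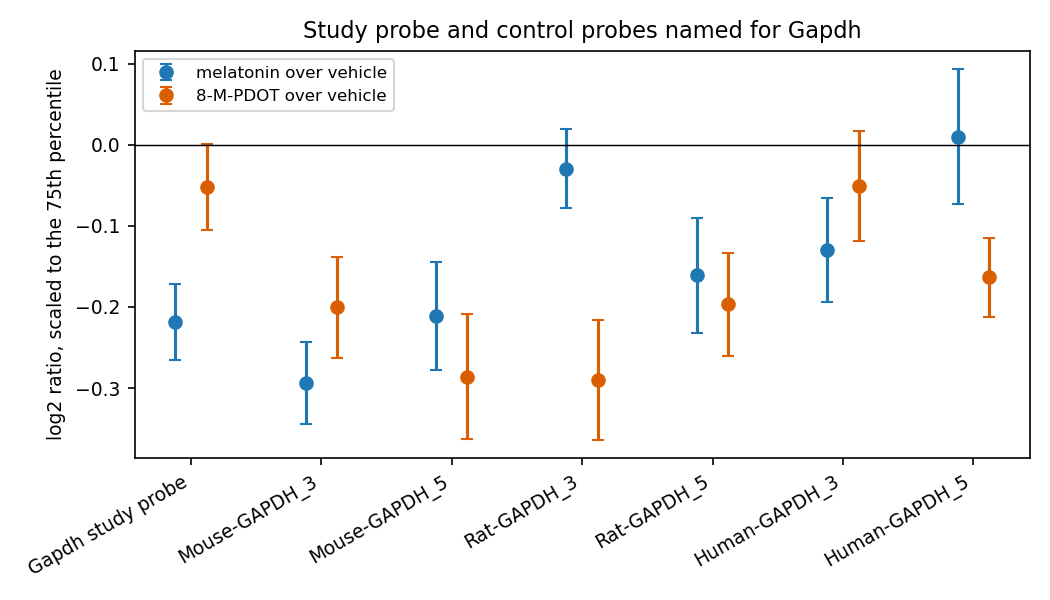
Log2 ratio to vehicle, scaled to the 75th percentile (vertical axis), for the Gapdh study probe and the 6 control probes named for GAPDH, with the SD over spots as bars. With 8-M-PDOT the mouse control probes lie at -0.20 and -0.29 and the study probe at -0.05, and with melatonin the probes run from -0.29 to 0.01. Under quantile normalization the study probe lies at -0.45 with 8-M-PDOT, below Mouse-GAPDH_5 at -0.14, and in other settings up to 4 of the 6 control probes lie above 0 with melatonin.

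Using the 3 genes as the reference moved all ratios by their mean, which was -0.19 with melatonin and 0.01 with 8-M-PDOT in the scaling to the 75th percentile. With 8-M-PDOT this changed little, with 8067 probes at least 2-fold higher (16.9%) and 7669 lower (16%), beside 8171 and 7545. With melatonin it moved the balance to 3952 higher (8.5%) and 1619 lower (3.48%), 12% in all, beside 2833 and 2390. Among the other 12 named genes, 3 were past 2-fold with melatonin and 5 with 8-M-PDOT under either reference. The melatonin genes were not the same ones. Tfrc, the transferrin receptor, went from -1.18 to -0.99 and dropped below 2-fold. G6pd2, which was copied by retroposition from the gene for an enzyme of the pentose phosphate pathway, went from 0.94 to 1.14 and passed it.

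The choice of a single reference gene decided the call for Tfrc. Its melatonin log2 ratio was -1.06 relative to Hsp90ab1, -0.96 relative to Gapdh and -0.93 relative to Ppia, so it passed 2-fold with 1 of the 3 references. G6pd2 passed with each of them, at 1.06, 1.16 and 1.19. B2m and Gusb, which encodes the lysosomal enzyme beta-glucuronidase, passed with each as well, at 2.68 to 2.81 and 1.46 to 1.59. With 8-M-PDOT, the 5 genes past 2-fold (Actb, B2m, Hprt, Rpl13a and Tbp) passed relative to each of the 3 genes alone.

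The signal of a gene also varied with the place of its spot on the array. On the vehicle array, spots in the first 192 of 384 rows were brighter than those in the later rows by 0.07 log2 units for Gapdh, 0.07 for Ppia and 0.08 for Hsp90ab1. On the melatonin array these differences were 0.01, 0.05 and 0.07, and on the 8-M-PDOT array 0.05, 0.05 and 0.05. Spots in the outermost columns (41 at each side of 164) were brighter than those between them by 0.01 to 0.09 over the genes and arrays, with the smallest and the largest difference both in Ppia, on the melatonin and the 8-M-PDOT array. The software corrected the 2 treated arrays for such gradients by multiplicative detrending (fit RMS of 0.046 for melatonin and 0.044 for 8-M-PDOT, per the file headers) and the vehicle array not at all (0). The melatonin ratio of Gapdh was -0.25 over the 9 spots in the first rows and -0.19 over the 11 in the later rows. For Ppia it was -0.25 and -0.23, and for Hsp90ab1 -0.12 and -0.11. With 8-M-PDOT, the first and the later rows differed by at most 0.03 for each gene. From the background-subtracted signal without detrending, scaled over the probes measured on every array, the ratios of Gapdh, Ppia and Hsp90ab1 were -0.15, -0.17 and -0.05 with melatonin and 0.09, 0.21 and 0.15 with 8-M-PDOT. The same scaling with detrending kept gave -0.16, -0.18 and -0.05, and 0.07, 0.20 and 0.14, so leaving out the detrending itself moved the ratios little.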

How the data were processed

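Total RNA of 3 samples was read in 1 colour (Cy3) on Arraystar mouse arrays, per the labels. Agilent Feature Extraction (11.0.1.1) subtracted the background from the spot intensity values in the deposited scanner files and detrended them, per the file headers. The authors also deposited log2 values, 1 for each probe and array (normalization: not given in the sources used here). The other deposited columns used here are flags for saturated, outlying and well-above-background spots.

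Spots were taken as log2 of the processed signal. Control spots, 15 probes for negative controls and any spot with a feature outlier flag on 1 or more arrays were dropped, which left no spot for 69 further probes. Spots of a probe were averaged, and each array's 75th percentile over study probes was subtracted. In a ratio, a probe counted as measured if either array had it well above background. Dim values were raised to the lowest signal well above background on the array (19.3, 15.7 and 14.4 units). Brightness for the 1268 bright probes is the unscaled mean over the 3 arrays. The SD is over spots of an array. The counting was tested on simulated data. No test between conditions was made, since each has 1 array. The paired t-test and random variance model that the series design names were therefore not run. Alternatives were other scalings, normexp (offset 50) applied to median spot signals with limma 3.58.1 under R 4.3.3, since the files hold no mean signal, the deposited table, other spot summaries, filters and thresholds. The use of the 3 genes as reference and the signal without detrending were added after seeing the data. Control probes were quantile-normalized through the map of the study probes.

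The genes, lists and settings were chosen with earlier results of these data known. The named genes were the 3 genes, the 3 nearest profiles of each among the genes named by accession, list members and control probes named for a member. Tfrc, G6pd2 and the other genes named beside a reference are on the reference gene list or, for G6pd2, were named after their values were seen. Gene names rest on accessions matched without version to a RefSeq table (GRCm38.p6), which matched 15 of 15.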

Additional observations from a re-analysis of the deposited data

How the results depend on the processing

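No paired analysis was possible because there was 1 array for each condition, and no array could be left out. A value is said to move when it shifts by more than its spot SD, or by over 1.5 times for a count. Keeping outlier spots and taking the median over spots moved no value or count. None of the settings put a ratio of the 3 genes past 2-fold. The values follow in the order Gapdh, Ppia and Hsp90ab1, first for melatonin and then for 8-M-PDOT. Without scaling the ratios were -0.29, -0.32 and -0.19, then -0.59, -0.47 and -0.52, with ranges of 0.59, 0.47 and 0.52. Percentiles over the probes measured on every array gave -0.16, -0.18 and -0.055, then 0.073, 0.20 and 0.14, with ranges of 0.38 (Ppia) and 0.20 (Hsp90ab1). Dropping the detrending as well, with those same percentiles, gave -0.15, -0.17 and -0.047, then 0.092, 0.21 and 0.15, with the same ranges of 0.38 and 0.20, so most of the move from the reported values came with the percentiles. Median scaling moved the 8-M-PDOT ratios to -0.19, -0.070 and -0.13. The mean of the 3 genes as reference gave -0.026, -0.052 and 0.078 with melatonin and ranges of 0.064, 0.11 and 0.078, which its construction makes small. Quantile normalization gave -0.057, -0.15 and 0.12, then -0.45 and -0.33 for Gapdh and Ppia, with a Gapdh range of 0.45. The deposited table gave -0.058, -0.145 and 0.12, then -0.45 and -0.31, with a Gapdh range of 0.45. Normexp with quantile normalization gave -0.050, -0.14 and 0.13, then -0.42 and -0.31, with a Gapdh range of 0.42. Normexp with the 75th percentile moved the Ppia range to 0.25. The causes were not tested.

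Differences between genes moved only under quantile normalization, in the deposited table (normalization not known here) and under normexp with quantile normalization, given in that order. Gapdh minus Hsp90ab1 was -0.18, -0.17 and -0.18 with melatonin and -0.42, -0.41 and -0.39 with 8-M-PDOT. Ppia minus Hsp90ab1 was -0.26, -0.26 and -0.27, then -0.30, -0.28 and -0.28. Gapdh minus Ppia moved under the last alone, to 0.088 with melatonin. Of the counts past 2-fold (2833 higher and 2390 lower with melatonin, 8171 and 7545 with 8-M-PDOT), no scaling gave 4901 higher and 15415 lower with 8-M-PDOT. Normexp with quantile normalization gave 1361 and 1115, then 5109 and 4891. Normexp with the 75th percentile gave 1371 and 1370, then 4973 lower with 8-M-PDOT. No filter gave 4380 and 3719 with melatonin. The 1.5-fold threshold gave 6000 and 6414, then 12807 and 13027, and the 4-fold threshold 541 and 393, then 3345 and 2085. Signal over background does not limit the 3 genes, whose spots were all well above background, while the lack of replicate arrays limits every value.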
